A study of Homo sapiens with 29 samples.

Results

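CCND1 and the 600 kb stretch around it at 11q13 (chr11:68900000-69500000, build hg19) were examined for accessible sites in 22Rv1, an established human prostate cancer cell line. Every peak overlapping the stretch was taken from the 29 peak lists of the series, and peaks that overlapped between libraries were merged, which gave 42 regions from 659 peaks, out of 166696 merged regions in all. CCND1 lies at chr11:69455873-69469242, and distances are given in kb from the start of the gene. No list of risk variants or enhancers was used, so no region was assigned to one.

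The assay was ATAC-seq, which sequences the fragments that a transposase releases from accessible DNA. Parental 22Rv1 cells gave 5 groups of 3 libraries: DMSO (0.1%), the stereoprobe WX-02-23 (20 µM), the stereoprobe WX-02-43 (20 µM), and 2 doses of PladB, 10 nM and 100 nM. PladB is pladienolide B, a natural product that binds the spliceosome subunit SF3B1. The engineered cells fell into 7 groups of 2 libraries, and all of them overexpressed Y36C-PHF5A, a splicing factor variant, together with a doxycycline (Dox)-inducible FOXA1. The WT-FOXA1 line was given Dox with DMSO, with WX-02-23 (20 µM) or with PladB (100 nM), and DMSO without Dox. The C258A-FOXA1 line was given Dox with DMSO, with WX-02-23 (20 µM) or with PladB (100 nM), and all treatments lasted 3 h. The engineered cells still carry their own FOXA1, and the labels do not say whether a line is 1 clone or whether replicates came from separate cultures, so p-values measure only the spread between these samples. The parental and the engineered lists come from different processing folders, per the peak names, so cell line and processing cannot be told apart and each treatment was compared with its own line.

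CCND1 encodes cyclin D1, which binds CDK4 and CDK6 and drives cells from G1 into S phase by phosphorylation of the retinoblastoma protein. The gene is amplified or overexpressed in many cancers, and in hormone-responsive tissues distant enhancers upstream of it respond to nuclear receptors. FOXA1, the pioneer factor expressed by the engineered lines, opens chromatin for the androgen receptor in prostate cells. In the RefSeq gene order (GRCh38.p14, used for names only) the protein-coding neighbours upstream are MYEOV, SMIM38 and TPCN2, with several long non-coding RNA genes between MYEOV and CCND1. LTO1, FGF19 and FGF4 follow downstream. The hg19 positions of these genes were not used, so a region given by its distance from CCND1 may lie at the start of a neighbouring gene.

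The lists held 82538 to 98193 peaks in parental and 62832 to 92658 in engineered libraries. Read totals were not given, but each peak's fold and p-value together fix the whole number of reads at its summit and the background the peak caller expected there. The lowest background in a library, called its genome background here, served as a measure of depth and ran from 0.546 to 1.502 reads per base. The deepest library by this measure was WX-02-43 replicate 3, which stood apart from the other 2 of its group. Its list was nonetheless the shortest of that group, with 83748 peaks against 96471 and 98079. A called summit needed 5 to 8 reads at the least, so a site with fewer was not detectable.

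The regions lay closest together at the gene. Of the 42 regions, 33 lay upstream of CCND1, 5 overlapped it and 4 lay downstream. The last 100 kb of the window, which include the gene, held 14 regions, against 3 to 9 in the other 5 stretches of that length. All 29 libraries had a peak in 10 of the 42 regions (23.8%), and over the genome 21.5% of regions were held by all 29. A further 26 regions were held by 2 to 28 libraries and 6 by 1 library, where 16.9% of all regions were held by 1.

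**Figure D1:**
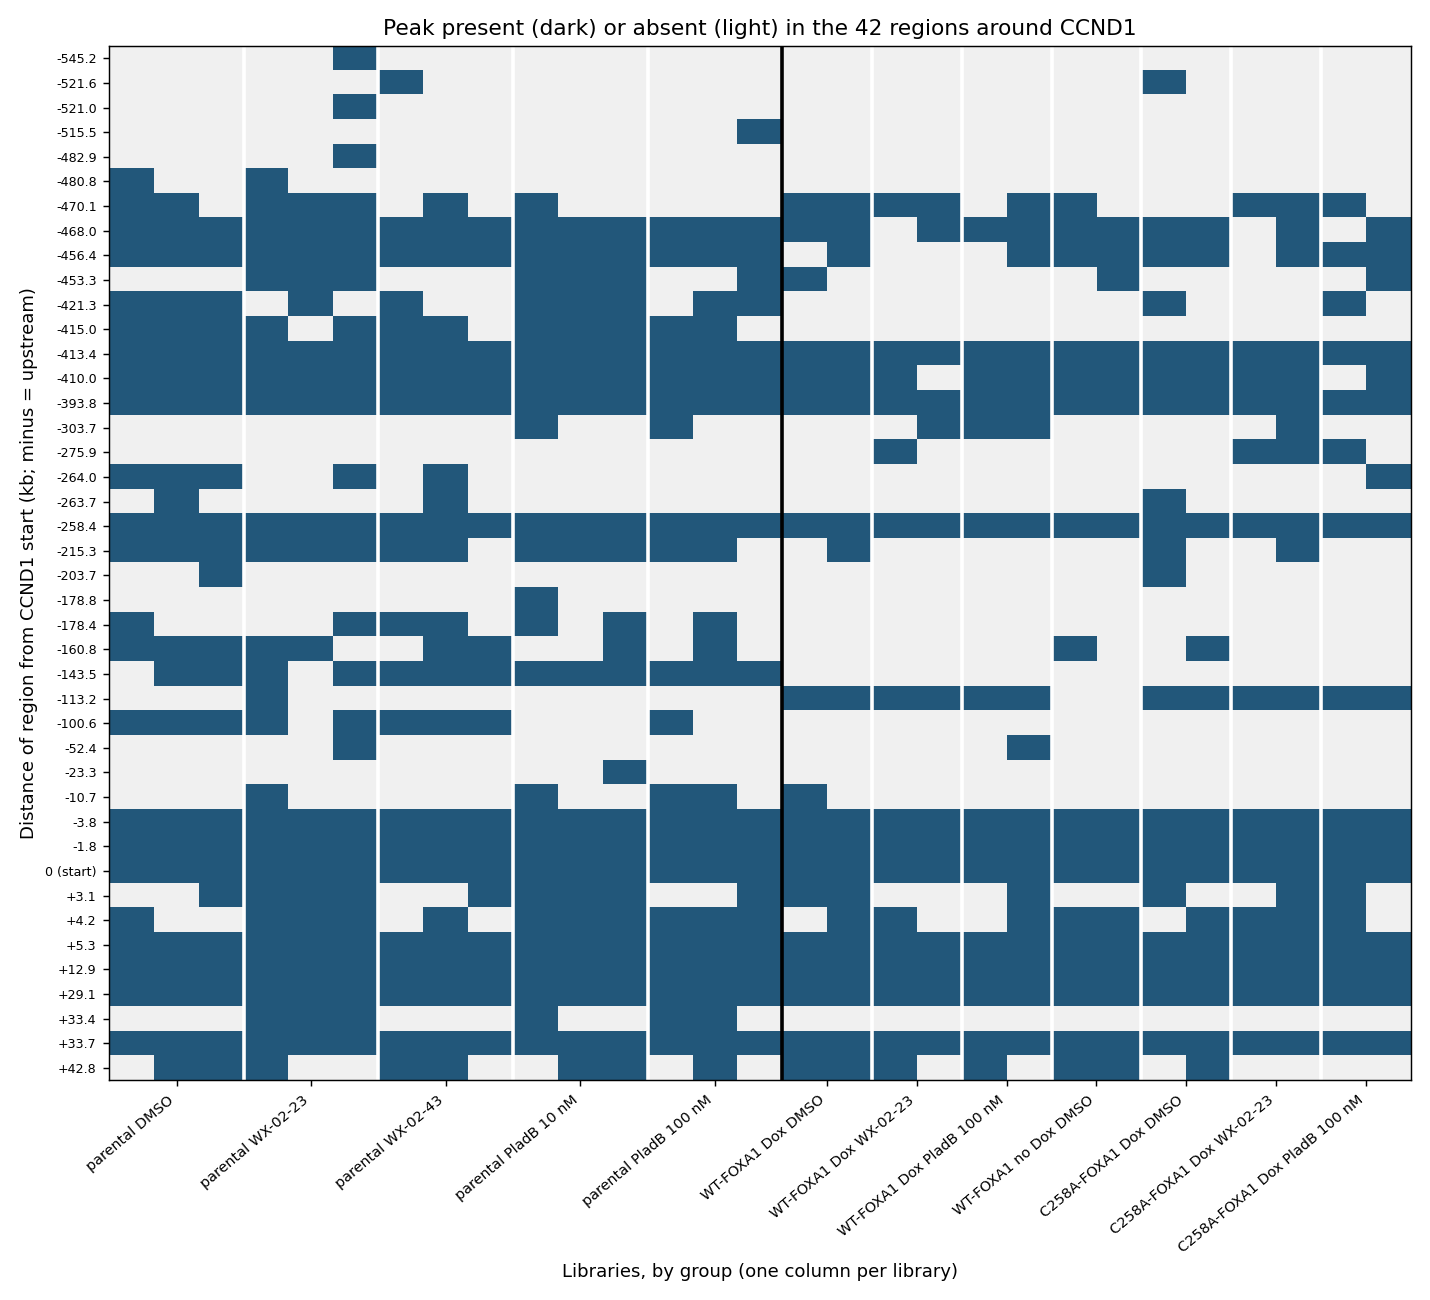
Presence of a peak in each of the 42 regions (rows, by distance from the CCND1 start in kb) in each of the 29 libraries (columns, by group; the black line divides parental from engineered libraries). The 7 regions within 5 kb of CCND1 include 5 of the 10 that every library held, and most others are patchy within groups.

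The strongest upstream sites lay close together. The region 393.8 kb upstream (chr11:69061295-69062063) had the highest fold enrichment of the window, with 11.99 at the lowest, a median of 15.02 and 18.9 at the highest over the 29 libraries. This fold is the authors' own value for the peak, the summit reads over the local background. The region 413.4 kb upstream (chr11:69041758-69042516) ranged from 7.78 to 12.6 with a median of 11.1. At 393.8 kb upstream the summit held 36 to 83 reads, a median of 61, and at 413.4 kb upstream 30 to 64, a median of 50. Another constant site lay 258.4 kb upstream (chr11:69196827-69197458), with a lower median fold of 8.07 and a median of 25 summit reads. Further upstream regions were found in nearly all libraries, that at 410.0 kb in 27, that at 468.0 kb in 26 and that at 456.4 kb in 24, and each was held by all 15 parental libraries.

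Downstream of the gene the region 33.7 kb from its start (chr11:69489602-69490709) was the second strongest of the window. Its fold ranged from 10.1 to 16.1, with a median of 12.2. Whether this region or the strong upstream ones lie at the start of a neighbouring gene was not checked. The region at 29.1 kb (chr11:69484961-69485289) was also held by every library, at a median fold of 4.77. With the upstream sites at 393.8, 413.4 and 258.4 kb and the region 1.8 kb upstream described next, the 33.7 kb region makes up the 5 constant regions of highest median fold.

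At CCND1 itself every library had peaks in 5 regions. Of these, 2 lay just upstream of the gene, at 3.8 kb (chr11:69451078-69452057) and 1.8 kb (chr11:69453746-69454105), with median folds of 4.04 and 5.19. Another covered the start of the gene (chr11:69455761-69456111), with its summit a median of 91 bp into the gene and a median fold of 2.96. The region in the gene body, 5.3 kb from the start (chr11:69461201-69462332), had a median fold of 2.24. The region over the 3′ end (chr11:69468772-69471056) had a median fold of 4.07, and its summit lay a median of 13719 bp from the start of a gene 13.37 kb long. The other 2 regions inside the gene were less regular: that at 3.1 kb (chr11:69458956-69459313) was found in 15 libraries and that at 4.2 kb (chr11:69460100-69460933) in 20. In parental cells all 3 WX-02-23 and all 3 PladB 10 nM libraries held both, and 1 DMSO and 1 WX-02-43 library held each. At PladB 100 nM 1 library held the 3.1 kb region and 3 the 4.2 kb region. Engineered libraries held them in 6 and 9 of 14. How many regions over the genome show such a presence was not counted. The exons and introns under these regions were not analysed here.

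The low folds at the gene did not come with few reads. The median summit held 65 reads at 1.8 kb upstream, 59 at the start, 62 in the gene body and 99 at the 3′ end, which was the highest of the window and above the 61 reads of the 393.8 kb upstream region with its far higher fold. What was high at the gene was the local background, the read density the peak caller expected from the surroundings. In the 5 constant regions at CCND1 the median local background was 10.3 to 33.0 times the genome background of the library, against 2.45 to 4.96 times in the 5 constant regions farther away. Peaks overlapping CCND1 had a median of 28.9 times, where all peaks of the 29 lists had a median of 1.85 times, and 0.0277% of all peaks had a higher value than 28.9. The fold at the gene was thus taken over a high background in every library.

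**Figure D2:**
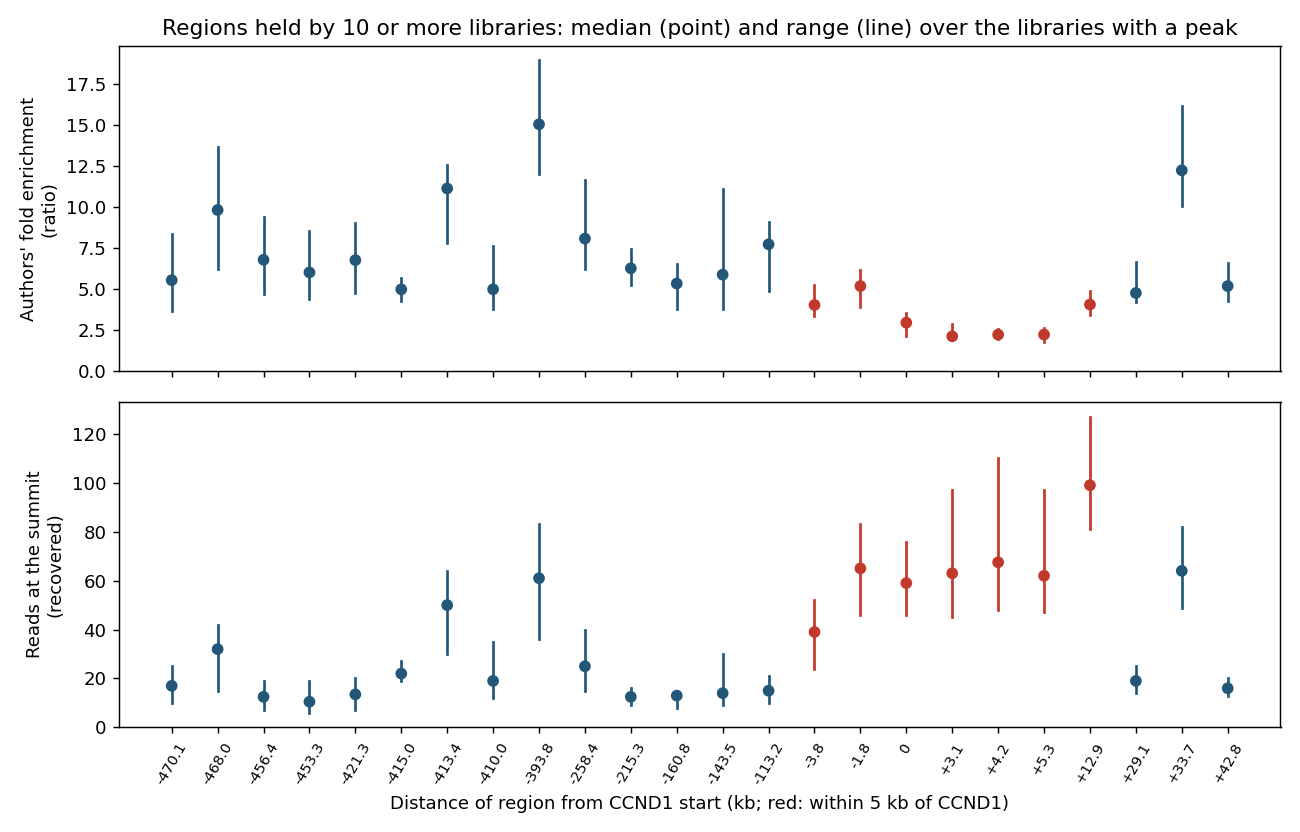
Authors' fold enrichment (upper panel, ratio) and recovered reads at the summit (lower panel) for the regions held by 10 or more libraries, by distance from the CCND1 start. Points are medians and lines the range over the libraries with a peak; the regions within 5 kb of CCND1 (red) have median folds of 5.19 or less and most of the highest read numbers.

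The local background in the CCND1 gene body was higher after WX-02-23 and after PladB in parental cells. In the region at 5.3 kb it was 26.6, 24.1 and 24.9 times the genome background in the 3 DMSO libraries. After WX-02-23 it was 43.3, 41.8 and 48.0 times. After PladB at 10 nM it was 43.2, 43.8 and 34.8 times, and after PladB at 100 nM 42.6, 40.3 and 40.5 times. None of these 9 treated libraries overlapped the DMSO libraries. WX-02-43 did overlap them, at 29.5, 28.6 and 19.0 times. The last was the library with the highest genome background, and the other 2 lay above all DMSO libraries. WX-02-43 replicate 3 was also the lowest of its group at the start of the gene, with 13.2 against 20.0 and 20.2 times. At the 3′ end it had 18.6 against 28.9 and 27.7 times.

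These differences were near the top of the range over all regions. For WX-02-23 against DMSO the ratio was 1.76, and 110 of 63228 regions held by all 6 libraries had a higher one. For PladB at 10 nM it was 1.60, with 2 of 63566 regions higher, and at 100 nM it was 1.63, with 5 of 58910 regions higher. By way of background, the local background was higher in all treated than in all DMSO libraries at 10.5% of regions for WX-02-23, 4.08% for PladB at 10 nM and 17.9% for PladB at 100 nM. The lack of overlap alone is thus common, and only the size of the ratio was unusual. The gene body was singled out after the data had been seen, so its ranks are a description and not a test. The ratio between the 2 stereoprobes, WX-02-23 over WX-02-43, was 1.76 without overlap, which 15.9% of regions also showed. The 2 PladB doses overlapped, with a ratio of 1.02. The width over which the peak caller averaged is not stated, so neighbouring regions may share reads in this measure.

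The engineered lines gave smaller differences on this scale. In the C258A-FOXA1 line the gene body had 35.01 and 30.3 times the genome background under DMSO, 43.9 and 42.7 times under WX-02-23 and 36.2 and 35.4 times under PladB. Both treatments lay above DMSO, with a ratio of 1.33 for WX-02-23 that 751 of 57860 regions exceeded and of 1.10 for PladB, where 14.9% and 30.1% of all regions were higher in both libraries. The WT-FOXA1 line had 26.7 and 26.4 times under DMSO, 29.4 and 21.4 times under WX-02-23 and 25.4 and 27.1 times under PladB, all overlapping. Its libraries without Dox had 32.04 and 33.0 times, so the libraries with Dox were lower, as 39.2% of all regions were. Over all regions the local background in WT-FOXA1 cells was lower after WX-02-23 than under DMSO, at a median log2 difference of -0.35.

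**Figure D3:**
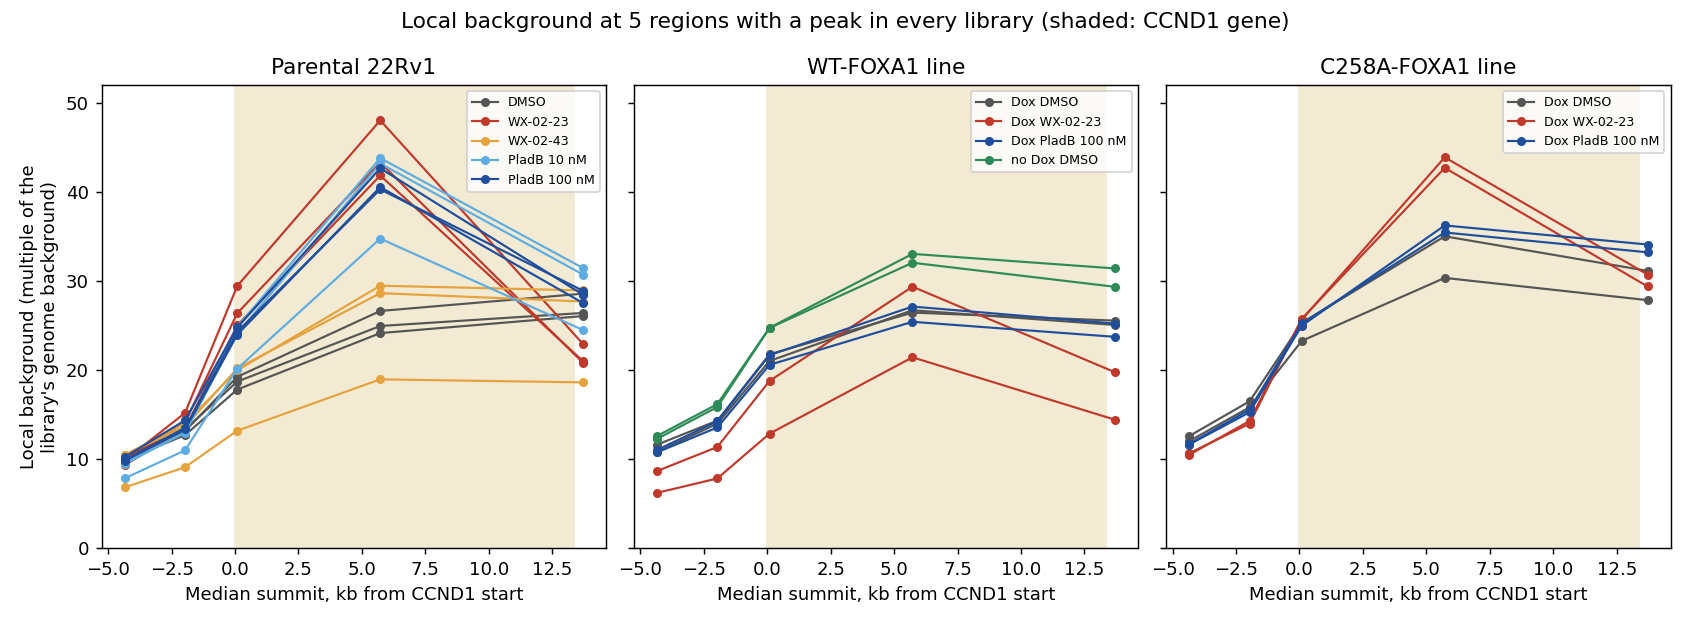
Local background at the 5 regions at CCND1 with a peak in every library, as a multiple of the library's genome background (y axis), against the median summit position in kb from the CCND1 start (x axis); each line is 1 library and the shading is the gene. In parental cells the WX-02-23 and PladB lines lie above DMSO in the gene body, and the WX-02-23 lines lie below DMSO at the 3′ end.

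The pattern differed along the gene. At the start region the parental local background was also higher without overlap, with ratios to DMSO of 1.45 for WX-02-23, 1.23 for PladB at 10 nM and 1.31 for PladB at 100 nM. Of all regions 10.5%, 4.08% and 17.9% were higher without overlap in these comparisons. WX-02-43 overlapped DMSO at the start region, with 20.0, 20.2 and 13.2 times the genome background against 19.2, 17.8 and 18.7 times. At the 3′ end WX-02-23 went the other way: its libraries had 20.8, 21.0 and 22.9 times the genome background, below all DMSO libraries at 28.6, 26.1 and 26.4 times, a ratio of 0.80. The local background was lower in all WX-02-23 libraries at 17.4% of regions, and 3021 of 63228 regions had a lower ratio than the CCND1 3′ end. Both PladB doses overlapped DMSO at the 3′ end, with ratios of 1.06 and 1.05.

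The balance between gene body and 3′ end can be given without any scaling by depth, as the local background at 5.3 kb divided by that at the 3′ end of the same library. In parental cells it was 0.934 ± 0.0092 under DMSO, 2.06 ± 0.056 under WX-02-23, 1.02 ± 0.0090 under WX-02-43, 1.41 ± 0.013 under PladB at 10 nM and 1.46 ± 0.055 under 100 nM (SD, n = 3 each). All 4 treated groups lay above all DMSO libraries, and WX-02-23 lay above all other 26 libraries of the series. This ratio was chosen after the data had been seen, so no test of it was made, and 3 against 3 libraries allow no exact two-sided permutation p below 0.1.

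Pairs of neighbouring regions 5 to 10 kb apart and held by all libraries compared give a background for this balance. For WX-02-23 against DMSO 30% of 8717 such pairs had ratios without overlap in either direction, and 5 pairs had a larger difference than CCND1, whose log2 difference was 1.14 against a median size of 0.12. For PladB at 10 nM the share was 15% and 14 of 8785 pairs had a larger difference than 0.59, and for PladB at 100 nM it was 27.6% and 40 of 7857 pairs exceeded 0.64. For WX-02-43 it was 14.9%, and 3700 of 8914 pairs exceeded 0.13, so that small difference was an ordinary one. Between the stereoprobes at their matched dose and time the log2 difference was 1.01, which 7 of 8638 pairs exceeded, where 28.4% showed no overlap.

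In the engineered lines the same balance was higher after WX-02-23, and after PladB it stayed close to DMSO. The WT-FOXA1 line with Dox had 1.05 ± 0.022 under DMSO, 1.49 ± 0.00015 under WX-02-23 and 1.07 ± 0.0033 under PladB at 100 nM (SD, n = 2 each). The C258A-FOXA1 line had 1.11 ± 0.025 under DMSO, 1.44 ± 0.018 under WX-02-23 and 1.06 ± 0.0029 under PladB (SD, n = 2 each). Without Dox the WT-FOXA1 line had 1.07 ± 0.028 (SD, n = 2), which overlapped the value with Dox. Ratios without overlap between WX-02-23 and DMSO were common in these lines, at 56.2% of 5452 pairs in the WT-FOXA1 line and 39.8% of 7201 in the C258A-FOXA1 line. The log2 differences of 0.50 and 0.38 at CCND1 were exceeded by 521 and 462 pairs, so they stood out less from the genome than the parental one. For PladB the log2 differences of 0.03 and -0.06 were exceeded by 5881 of 7332 and 5098 of 6903 pairs, where 35% and 39.5% of pairs did not overlap. Whether the lines differ in their response was not tested. Every engineered library also overexpressed Y36C-PHF5A, so FOXA1, PHF5A and line cannot be told apart where these cells differ from parental ones.

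**Figure D4:**
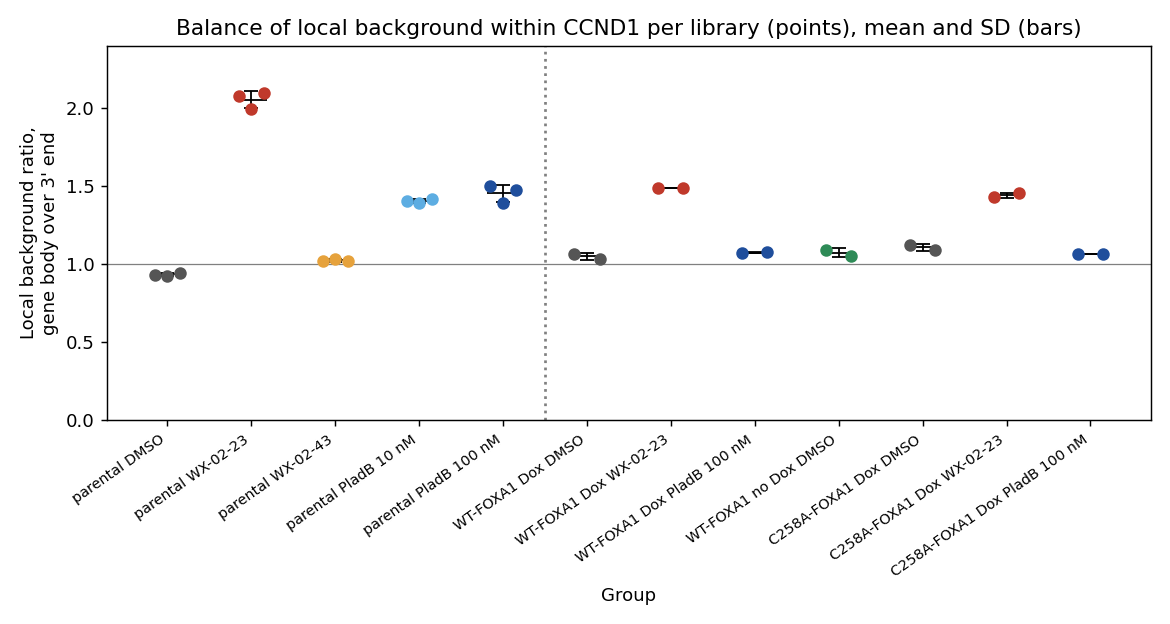
Local background in the CCND1 gene body divided by that at its 3′ end (y axis, ratio) in each library (points) with mean and SD (bars) per group; the dotted line divides parental from engineered groups. Parental WX-02-23 libraries sit near 2.06, parental PladB libraries near 1.41 and 1.46, WX-02-23 libraries of both engineered lines near 1.49 and 1.44, and the others near 1.

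The gene body was also set against the upstream side. Divided by the local background of the region 3.8 kb upstream in place of the 3′ end, the parental gene body had 2.49 ± 0.11 under DMSO, 4.60 ± 0.24 under WX-02-23, 2.78 ± 0.045 under WX-02-43, 4.52 ± 0.076 under PladB at 10 nM and 4.12 ± 0.046 under 100 nM (SD, n = 3 each). The denominator itself was 10.2, 9.90 and 10.3 times the genome background in DMSO. It was lower after WX-02-23 (9.76, 9.32 and 9.85) and PladB at 10 nM (9.45, 9.61 and 7.84). Such a lower background without overlap was found at 17.4% and 8.65% of all regions. WX-02-43 and PladB at 100 nM overlapped DMSO there. For the WT-FOXA1 line the values were 2.37 ± 0.14 under DMSO, 3.42 ± 0.043 under WX-02-23 and 2.41 ± 0.070 under PladB (SD, n = 2 each). For the C258A-FOXA1 line they were 2.65 ± 0.18, 4.10 ± 0.034 and 3.07 ± 0.060 (SD, n = 2 each). On this measure PladB lay above DMSO in the C258A-FOXA1 line, in contrast to the ratio to the 3′ end. Parental WX-02-43 also lay above DMSO, at 2.73 to 2.82 against 2.42 to 2.61. The share of region pairs without overlap was not worked out for this denominator. How common such differences are over the genome is thus not known.

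Summit reads in the gene body were also higher after WX-02-23 and PladB in parental cells. Divided by the genome background of the library, they were 53.4, 47.9 and 55.4 in parental DMSO and 79.4, 92.6 and 85.6 after WX-02-23. They were 81.2, 92.5 and 73.8 after PladB at 10 nM and 79.0, 91.9 and 81.6 after 100 nM. WX-02-43 overlapped DMSO, with 73.5 and 67.1 in 2 libraries above DMSO and 44.6 in the deepest library below it, a log2 difference of 0.21 where the median over all regions was -0.22. Unscaled, its summits held 71, 75 and 67 reads, against 47, 48 and 51 in DMSO. For WX-02-23 and the 2 PladB doses the mean log2 differences from DMSO were 0.72, 0.66 and 0.69, where the medians over all regions were -0.05, -0.01 and 0.14. Summit reads were higher in all treated libraries at 7.85%, 3.92% and 26.1% of all regions. In the C258A-FOXA1 line they were higher after WX-02-23, with 111.1 and 104.7 against 82.7 and 65.8 in DMSO, a log2 difference of 0.55, and 11.5% of regions were higher in both libraries. PladB there gave 93.3 and 86.9, also above DMSO, a log2 difference of 0.29 where the median over all regions was 0.18 and 41.6% of regions were higher. WX-02-23 in the WT-FOXA1 line overlapped DMSO, with 78.6 and 48.6 against 59.8 and 67.5. In that comparison 81.4% of all regions were lower in both WX-02-23 libraries, at a median log2 difference of -0.61. PladB in that line also overlapped DMSO, with 65.9 and 62.8, and the libraries without Dox had 79.1 and 77.4, above those with Dox, as at 35.7% of regions. The fold of this peak hardly followed: it was 1.96, 1.94 and 2.17 in parental DMSO and 1.82, 2.19 and 1.77 after WX-02-23, with both the reads and the background higher.

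The number of regions with a peak passed no test between groups. It was 23 in each of the 3 parental DMSO libraries, 27, 21 and 28 after WX-02-23, 21, 24 and 17 after WX-02-43, 26, 21 and 24 after PladB at 10 nM, and 21, 23 and 19 after 100 nM. In the WT-FOXA1 line it was 18 and 19 after DMSO, 16 and 14 after WX-02-23, 15 and 19 after PladB, and 17 and 16 without Dox. The C258A-FOXA1 line had 20 and 17 after DMSO, 15 and 20 after WX-02-23, and 17 and 16 after PladB. Between treatments only 2 comparisons did not overlap, both of them in WT-FOXA1 cells: WX-02-23 against DMSO, and DMSO with against without Dox. In each, the group with fewer regions also had the shorter lists. None of 15 exact two-sided permutation tests passed, with Benjamini-Hochberg adjusted p from 0.75 to 1. The smallest unadjusted exact permutation p was 0.0778, for PladB at 100 nM against DMSO over the 3 lines, a difference of -1.83 regions. A single comparison of 3 against 3 libraries could not go below 0.1 and of 2 against 2 not below 0.333. The WX-02-23 effect differed between the engineered lines by -2.5 regions, with an exact permutation p of 0.611.

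**Figure D5:**
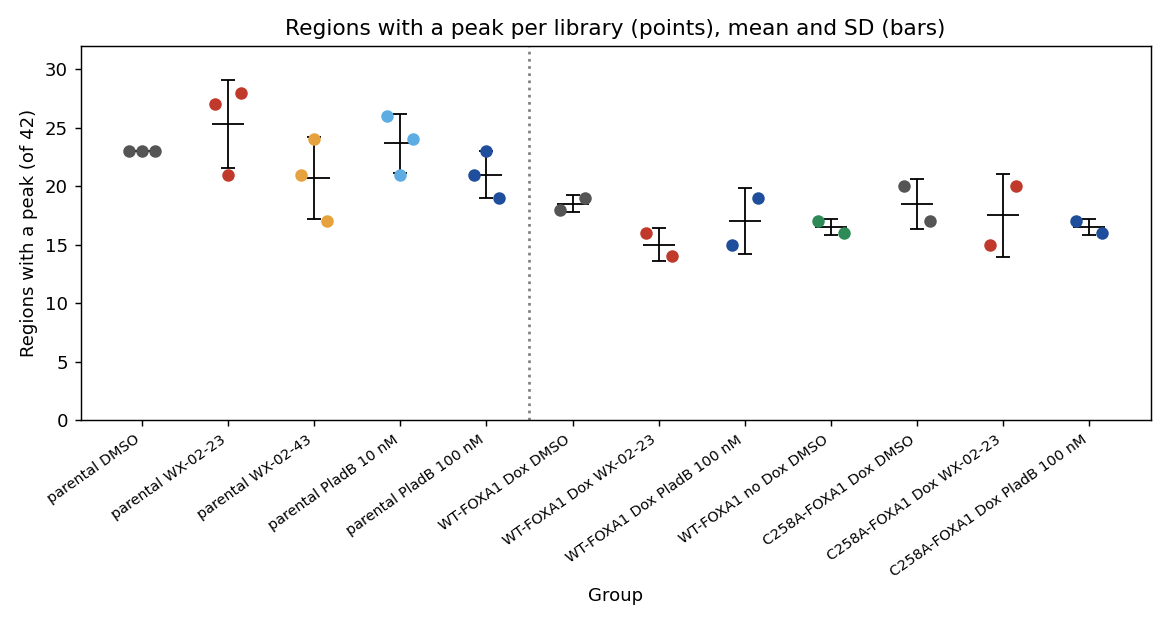
Number of the 42 regions with a peak in each library (points), with mean and SD (bars) per group; the dotted line divides parental from engineered groups. Parental libraries hold 17 to 28 regions and engineered libraries 14 to 20, and treated and DMSO libraries of a line overlap or differ by few regions.

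Single regions came and went with treatment in small numbers. A region was counted as gained when all libraries of the treated group and none of the control group had a peak in it, and as lost in the reverse case. Parental WX-02-23 against DMSO gained 2 of 36 regions and lost none, where 1.82% of all regions were gained and 1.18% lost. The first, 453.3 kb upstream (chr11:69002311-69002580), had folds of 8.51, 5.33 and 5.72 after WX-02-23 on 19, 10 and 10 summit reads, where the fewest reads of any peak in those lists were 7, 6 and 6. It was also found in all 3 PladB 10 nM libraries, in 1 of 3 at 100 nM and in no WX-02-43 library. The second, 33.4 kb downstream of the gene start (chr11:69489263-69489550), lay beside the strong 33.7 kb region and had folds of 4.63, 4.40 and 4.41 on 33, 29 and 30 reads. It was found in no DMSO or WX-02-43 library, in 1 PladB 10 nM and 2 PladB 100 nM libraries, and in none of the 14 engineered libraries. The same 2 regions were gained against WX-02-43, where 1.6% of all regions were, and without WX-02-43 replicate 2 the gained regions numbered 4. Without WX-02-23 replicate 2 or 3, 1 region counted as lost against DMSO, and with all lists cut to equal length 1 region was gained and 1 lost.

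The other parental comparisons called few regions. WX-02-43 against DMSO gained and lost none of 29, where 0.34% and 0.369% of all regions were gained and lost. PladB at 10 nM gained 1 of 34, the 453.3 kb upstream region again, and lost 2, against 0.408% and 0.556% of all regions. The lost regions lay 264.0 kb upstream (chr11:69191578-69191881) and 100.6 kb upstream (chr11:69354962-69355262), the latter present in 1 of 3 libraries at 100 nM. PladB at 100 nM gained none of 33 and lost the 264.0 kb upstream region, against 0.187% and 1.68% of all regions. That region was patchy in other groups too, with a peak in 1 of 3 WX-02-23, 1 of 3 WX-02-43 and 1 of 14 engineered libraries. Its summits held 10 to 16 reads. The 2 PladB doses gained and lost none of 31 against each other, where 0.121% and 1% of all regions were. No region of the window was held by the 3 parental WX-02-23 libraries and none of the other 12 parental ones, or the reverse, where 0.644% and 0.123% of all regions were.

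A single distal region had a peak in every library with Dox and in neither without. The region 113.2 kb upstream (chr11:69342317-69342661) had a peak in 12 of 12 engineered libraries with Dox, in neither library without Dox and in 1 of 15 parental libraries. Its fold ranged from 4.87 to 9.07, a median of 7.73, on 10 to 21 summit reads, and the lowest fold was that of the parental library. It was 1 of the 30 regions of the window held by any engineered library, 3.33%, and over the genome 2.65% of such regions were held by all 12 Dox libraries and neither of the 2 without, so the share in the window was near that of the genome. Both the WT-FOXA1 and the C258A-FOXA1 line held the peak under DMSO, WX-02-23 and PladB. The lists without Dox were shorter than those with Dox and DMSO, 67195 and 69814 against 85009 and 88140 peaks, and the part of list length in the missing peak was not tested. Libraries with Dox and DMSO of the WT-FOXA1 line also held the 3.1 kb region inside CCND1, which those without Dox lacked, so that 2 of 22 regions were gained and none lost, where 13.2% and 1.1% of all regions were gained and lost. With all lists cut to equal length, Dox gained none and 2 regions counted as lost.

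In the engineered lines the treatments gave few calls. WX-02-23 in the WT-FOXA1 line gained none of 23 and lost the 3.1 kb region of CCND1, where 1.31% and 11.7% of all regions were gained and lost. In the C258A-FOXA1 line it gained 2 of 26, at 470.1 kb (chr11:68985355-68985729) and 275.9 kb upstream (chr11:69179693-69179961), and lost none, against 2.37% and 2.55%. The 470.1 kb region was held by 16 libraries of the series, among them 2 of 3 parental DMSO, 3 of 3 parental WX-02-23 and 1 of 2 C258A-FOXA1 PladB libraries. The 275.9 kb region was found in 4 engineered and in no parental library. Its summits in the C258A-FOXA1 WX-02-23 libraries held 7 and 15 reads, where the fewest of any peak in those lists were 5 and 6. PladB gained 1 of 23 in the WT-FOXA1 line, at 303.7 kb upstream (chr11:69151968-69152218), against 0.915% of all regions, and lost none, against 3.05%. PladB gained and lost none of 27 in the C258A-FOXA1 line, against 0.806% and 4.67%. Under DMSO with Dox the C258A-FOXA1 line lacked the 470.1 kb region that the WT-FOXA1 line held and gained none of 26, against 3.82% and 3.7% of all regions.

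Parental and engineered libraries shared the constant sites. All 15 parental libraries held 13 of the 42 regions and all 14 engineered libraries held 10, shares of 31.0% and 23.8%, where 32.6% and 22.4% of all regions were so held. Regions found in parental libraries alone numbered 12, 28.6% of the window against 25.2% of all regions, and 6 of them were in 2 or more libraries, 14.3% against 14.7%. The most regular of these were that 143.5 kb upstream (chr11:69311965-69312352), in 13 of 15 parental libraries, and that 415.0 kb upstream (chr11:69040548-69040823), in 12. Engineered libraries alone held 1 region, 2.38% against 18.5%.

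The fold at the start region was compared with that of the 9 other constant regions. The start region lay at a median percentile of 0.33 of the fold, so its values are ranks among the lowest folds of a list. Over the 29 libraries, with folds expressed as percentiles within each list, the highest Spearman correlations were with the regions 413.4 kb upstream (0.46), 393.8 kb upstream (0.43) and 1.8 kb upstream (0.40). The points share libraries and depth, and within the 15 parental libraries the same values were 0.18, 0.24 and 0.11. Within the 14 engineered libraries they were 0.70, 0.05 and 0.23, and the region 258.4 kb upstream had 0.56 there and -0.13 in the parental libraries.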

How the data were processed

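Per the labels' protocols, libraries were made with a commercial ATAC-seq kit. The submitters' processing notes name Bowtie2, MACS2 and build hg19. Versions, options, read filters and the width over which the local background was averaged are not stated there or in the labels. The authors deposited 1 peak list per library, with replicates not pooled. Each deposited peak has a score, a ratio of summit to local background with a small constant added to each (its fold), p- and q-values as −log10, and a summit position. The lowest deposited −log10 q was 2.00.

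Merging over libraries used the autosomes (1 to 22) and both sex chromosomes, and an overlap of 1 bp or more counted as presence. Presence was the measure compared, with exact two-sided permutation tests of the number of regions held and Benjamini-Hochberg adjustment over 15 tests. Whole summit reads and the local background were recovered for 100% of peaks from fold and p-value (tolerance 0.01 in −log10 p). They are described without tests, for the peak of smallest p in a region. The genome background is the lowest local background of a list. The regions described singly were those within 5 kb of CCND1, the 5 constant regions of highest median fold, and those gained or lost with WX-02-23 or Dox or held by, or missing from, 1 parental treatment alone. The other gained and lost regions, the 2 parental regions of highest presence and those held by nearly all libraries were picked after their values were seen.

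The window and lists were chosen with earlier results of these data known. The local background of the gene body, its ratio to the 3′ end, the neighbouring pairs and the alternatives to that ratio were chosen after seeing the data. The alternatives for region numbers and calls used stricter lists (q of 1e-05 or below), lists of equal length, regions per 10000 peaks, a replicate block, and each library left out in turn. Recovery, counting and tests were tested on simulated data. Planned lists of cell cycle genes and prostate markers were not used here, because no hg19 annotation was used, so the cell type was not checked. No sequences are printed for the same reason. Tools were scipy 1.17.1, pandas 2.3.3, numpy 2.4.6 and matplotlib 3.10.9 under Python 3.11.15.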

Additional observations from a re-analysis of the deposited data

How the results depend on the processing

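Of 153 alternative values for the differences in region number, 130 kept their sign and side of the threshold, 20 reversed and 3 went past 0.05. The 130 include 12 of the replicate block, whose differences are fixed by the group means. With lists of equal length, which drop weak peaks from the longer lists, the difference from DMSO became -1 for parental WX-02-23, -0.667 for PladB 10 nM, 1 for PladB 100 nM, 1 for WX-02-23 in the WT-FOXA1 line, 3 in the C258A-FOXA1 line and 1 over the 3 lines. PladB 100 nM against 10 nM became 1.67 and Dox against no Dox -1.5. Per 10000 peaks, PladB 100 nM became 0.041 in parental cells, 0.013 in the C258A-FOXA1 line and 0.013 over the 3 lines. WX-02-23 became 0.16 in the WT-FOXA1 line and 0.085 over the 3 lines, Dox against no Dox became -0.27, and the difference between the engineered lines in the WX-02-23 effect became 0.26.

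Leaving out single libraries gave -0.5 to 2 for PladB 10 nM (below 0 without PladB 10 nM replicate 1), -3.5 to 0.5 for PladB in the WT-FOXA1 line (above 0 without its PladB replicate 1) and -3.5 to 1.5 for WX-02-23 in the C258A-FOXA1 line (above 0 without its WX-02-23 or DMSO replicate 1). WX-02-23 over the 3 lines gave -1.56 to 0.11, above 0 without C258A-FOXA1 WX-02-23 replicate 1. PladB 100 nM over the 3 lines gave -2.5 to -1.17, with an unadjusted exact permutation p of 0.0361, 0.0222 and 0.0444 without parental PladB replicate 2, WT-FOXA1 PladB replicate 2 and C258A-FOXA1 DMSO replicate 2.

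Of 168 counts of gained or lost regions, 111 stayed within 1.5 times and 57 moved, by few regions each. With equal lists, parental WX-02-23 gained 1 and lost 1 region and gained 1 against WX-02-43, PladB 10 nM gained 0 and lost 0, PladB 100 nM lost 0, WX-02-23 in the WT-FOXA1 line lost 0, Dox gained 0 and lost 2, and C258A-FOXA1 against WT-FOXA1 lost 0. At a q-value of 1e-05 or below, WX-02-43 gained 1, PladB 10 nM gained 3 and lost 0, PladB 100 nM gained 1 and lost 0, PladB in the WT-FOXA1 line lost 1, and C258A-FOXA1 against WT-FOXA1 lost 0. Without single libraries the counts gained were 2 to 3 for parental WX-02-23 and 2 to 4 for it against WX-02-43, 1 to 2 for PladB 10 nM and 0 to 2 for 100 nM. The counts lost there were 0 to 1 for WX-02-23, 0 to 1 for WX-02-43, 2 to 3 for PladB 10 nM, 1 to 2 for 100 nM, and 0 to 2 for 100 nM against 10 nM. In the WT-FOXA1 line 0 to 1 were gained and 2 to 3 lost with WX-02-23, 1 to 2 gained and 1 to 2 lost with PladB, and 2 to 3 gained and 0 to 2 lost with Dox. In the C258A-FOXA1 line 2 to 3 were gained and 0 to 4 lost with WX-02-23, 0 to 2 gained and 0 to 4 lost with PladB, and 0 to 4 gained and 1 to 3 lost against the WT-FOXA1 line.

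Of 84 alternative values for differences in the local background ratio of the CCND1 gene body, 70 stayed within the spread between replicates and 2 reversed. Over all peaks of a region the parental differences became 1.03 for WX-02-23, 0.41 for PladB 10 nM and 0.95 for WX-02-23 against WX-02-43. With the upstream region as denominator they became 2.11 for WX-02-23, 0.29 for WX-02-43, 2.03 for PladB 10 nM, 1.63 for 100 nM and 1.83 for WX-02-23 against WX-02-43. They became 1.05 for WX-02-23 and -0.24 for Dox in the WT-FOXA1 line, 1.44 for WX-02-23 in the C258A-FOXA1 line and 0.28 between these lines. PladB 100 nM against 10 nM reversed to -0.39, and PladB in the C258A-FOXA1 line reversed to 0.42. Leaving out single libraries reversed none of these ratios.

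Whether the replicate numbers pair the samples was not settled. Beyond what their groups shared, same-numbered libraries correlated by only -0.0169 to 0.0158. The own number was the best match in 0 to 2 of 3 pairs in parental comparisons. In the engineered comparisons it was best in 2 of 2, except PladB against DMSO in the WT-FOXA1 line, with 0 of 2. With 2 libraries a group, deviations from the group mean mirror each other, so only 2 of 2 or 0 of 2 could arise. So few pairs cannot decide the question. With the replicate block the differences could only stay the same, such as 2.33 for parental WX-02-23 and -2 for PladB 100 nM. Paired differences average to the difference of the group means. The exact permutation p was 0.5 or more in the 12 comparisons, and with 2 libraries a group it could not go below 0.5. The cause of the changes above was not tested. Peaks of few reads limit presence, and a region without a peak can be open below that limit.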
